A study of Mus musculus with 9 samples.

Results

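The Hes and Hey genes encode a family of repressors, and 8 of them (Hes1, Hes3, Hes5, Hes6, Hes7, Hey1, Hey2 and Heyl) were followed by name among the 47729 genes of the FPKM table. All 8 were found there, and all 8 were also among the 19210 genes of the authors' filtered table. RNA was sequenced from mouse embryonic stem cells (ESCs), pluripotent cells of the early embryo, that carried a transgene switched on by doxycycline (dox). The transgene encodes a forced E2A homodimer, in which FLAG-tagged mouse E47 is tethered by a flexible linker to another E47, and it was inserted upstream of Hprt by cassette exchange. Cells were kept in LIF/serum and were either left without dox (0 h) or given dox at 1 µg/ml for 18 h or 24 h, with 3 replicates at each of the 3 time points and thus 9 libraries. All 3 groups carried the transgene, and dox-treated cells without it were not analysed here. No library without dox was taken at 18 h or 24 h, so dox, the transgene and time cannot be told apart. In the labels, the text on treatment names other times, and the 18 h and 24 h of the titles, of the treatment entries and of the paper were used.

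Hes and Hey proteins are basic helix-loop-helix (bHLH) factors that bind DNA as dimers. Hes proteins silence genes through Groucho/TLE co-repressors. Most of the Hes and Hey genes are known as targets of Notch. A Delta or Jagged ligand on a neighbouring cell triggers cleavage of the receptor. Its intracellular domain then joins RBPJ on the promoters of genes such as Hes1, Hes5 and Heyl. The repressors made in this way hold back the proneural bHLH factors, which work as dimers with E proteins such as E2A. Hes6 stands apart in this family. It is known as a gene that proneural factors switch on, and its protein opposes Hes1 rather than acting with it. Notch signalling was not manipulated in these libraries, so the split between Hes6 and the other 7 genes is one of prior knowledge.

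E proteins bind the E-box CANNTG and favour the form CAGGTG, whereas TGGGAA is the core of the RBPJ site. The bases before the annotated start of Hes6, Hey2 and Hes5 are therefore shown, from RefSeq on GRCm38.p6. E-boxes, TGGGAA, the N-box CACNAG and CACGTG are in capitals on either strand. The RefSeq table matched 4 of the 8 members (Hes5, Hes6, Hes7 and Hey2), so no stretch of Hes1, Hes3, Hey1 or Heyl could be shown. Hes7 was searched and is not printed. The search covered 250 bases before each start. The stretch printed for Hey2 stops earlier, before a further start that GENCODE annotates upstream. Hes6 has an upstream start that GENCODE gives to a non-coding transcript (chr1:91414039-91414288, minus strand) and the start of its coding transcript (chr1:91413223-91413472, minus strand), and the stretch before the latter lies in the first intron of the non-coding transcript. The stretches of Hey2 (chr10:30842802-30843033, minus strand) and Hes5 (chr4:154960673-154960922, plus strand) are shown for comparison.
Hes6, upstream start: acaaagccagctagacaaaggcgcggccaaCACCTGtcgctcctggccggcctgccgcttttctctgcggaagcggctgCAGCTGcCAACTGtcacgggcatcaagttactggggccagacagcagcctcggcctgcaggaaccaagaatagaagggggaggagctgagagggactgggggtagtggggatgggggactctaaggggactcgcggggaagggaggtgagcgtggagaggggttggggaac
Hes6, coding start: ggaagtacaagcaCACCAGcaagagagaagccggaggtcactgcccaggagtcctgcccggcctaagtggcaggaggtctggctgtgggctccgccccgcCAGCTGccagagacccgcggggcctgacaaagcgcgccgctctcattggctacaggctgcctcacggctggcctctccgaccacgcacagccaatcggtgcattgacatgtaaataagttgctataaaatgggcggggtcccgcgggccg
Hey2: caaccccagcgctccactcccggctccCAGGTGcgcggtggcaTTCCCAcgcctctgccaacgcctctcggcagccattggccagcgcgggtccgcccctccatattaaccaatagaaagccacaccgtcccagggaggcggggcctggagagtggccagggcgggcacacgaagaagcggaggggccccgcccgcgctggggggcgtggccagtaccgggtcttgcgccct
Hes5: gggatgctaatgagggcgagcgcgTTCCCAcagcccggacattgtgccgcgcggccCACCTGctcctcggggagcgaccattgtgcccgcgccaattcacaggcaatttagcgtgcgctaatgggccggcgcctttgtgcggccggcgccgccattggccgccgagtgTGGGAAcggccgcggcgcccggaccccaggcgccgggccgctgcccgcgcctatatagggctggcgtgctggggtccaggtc

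The upstream start of Hes6 had 3 E-boxes, which begin 220, 171 and 164 bases before the start. Its coding start had 1 E-box, 150 bases before it, and 1 N-box, 237 bases before it. Hes7, which did not pass the test at either time, had 2 E-boxes (250 and 174 bases before its start) and 1 N-box (116). The form that E proteins favour, CAGGTG read on either strand, occurred once each in Hey2 (223 bases before the start), in Hes5 (194) and before the upstream start of Hes6 (220, the first of the 3 above). The RBPJ core was absent from both Hes6 windows. It occurred in Hey2 (207 bases before the start), in Hes5 (226 and 82) and in Hes7 (180). Of 32851 promoter windows of the same length in the table, 66.2% held an E-box, 17.2% held its favoured form, 21.6% held the RBPJ core, 36.7% held an N-box and 6.02% held CACGTG. The favoured form and CACGTG are themselves E-boxes, and no member window held CACGTG. These matches describe letters in the sequence, since binding of E2A or of RBPJ was not measured.

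The reads on listed genes numbered from 22028363 to 26471569 per library. Tcf3, the gene that encodes E2A, was at 37.7 to 41.2 FPKM without dox, 106.6 to 116 after 18 h and 93.6 to 108 after 24 h, and reads of the transgene can be counted on it. All 8 pluripotency markers had a mean above 1 FPKM, and they summed to 1177 to 1838 FPKM without dox, 971 to 1557 after 18 h and 932 to 1538 after 24 h. Among them, Pou5f1 was lower in each dox-treated library than in any without dox (371 FPKM on average, then 290 and 248), whereas Nanog was higher in each (40.6, then 56.8 and 73.4). Most of the pluripotency sum was Dppa5a (777 FPKM on average without dox, then 621 and 622) and Pou5f1. Dppa5a, Sox2, Esrrb, Zfp42, Klf4 and Tfcp2l1 overlapped between libraries with and without dox. None of the 8 mesendoderm markers had a mean above 1 FPKM over all 9 libraries, and their sum was at most 3.98 FPKM in any library. Without dox alone, T averaged 1.27 FPKM and Eomes 1.07. Markers of neural progenitors summed to 32.8 to 48.8 FPKM without dox, 46.5 to 64.9 after 18 h and 41.8 to 61.8 after 24 h, with Fabp7, Pax6 and Pou3f2 below a mean of 1 FPKM. Most of the neural sum was Nes (36.0 FPKM on average without dox, then 51.2 and 47.1, with overlapping libraries). Sox1 (0.351, then 1.06 and 2.46) and Fabp7 (0.387, then 0.589 and 0.983) were higher in each dox-treated library than in any without dox. Sox3, Pax6 and Pou3f2 overlapped. Trophectoderm markers summed to 324 to 377 FPKM without dox, 687 to 822 after 18 h and 624 to 824 after 24 h, with Elf5 near 0. Most of the trophectoderm sum was Krt8 and Krt18. Both were higher in each dox-treated library, as were Cdx2 and Hand1, while Tfap2c overlapped after 18 h. Fibroblast markers summed to 24.5 to 51.3 FPKM without dox, 39.7 to 88.5 after 18 h and 41.3 to 81.9 after 24 h, with Postn and Twist2 below a mean of 1 FPKM. The higher fibroblast sums came from Acta2 (30.5 FPKM on average without dox, then 62.2 and 56.6, with overlapping libraries), while Thy1 was lower in each dox-treated library (2.08, then 1.21 at both times) and Col1a1 and Col1a2 overlapped. The trophectoderm sums with and without dox did not overlap, whereas the other sums did. Within each replicate number, however, the neural, trophectoderm and fibroblast sums were higher and the pluripotency sum was lower at both times than without dox, and those of mesendoderm went either way. The part of these markers in the results of the members was not tested. In bulk RNA, more cells that express a gene and more RNA of it per cell cannot be told apart.

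Changes were tested with limma on log2(FPKM+0.1) over the 17951 genes whose mean FPKM reached 0.1, with p values adjusted by the Benjamini–Hochberg method over all of them. Genes are described as upregulated or downregulated where the adjusted p was at most 0.05, and as called where the change was in addition at least 2-fold. Of the 8 members, 7 passed the filter and Heyl did not. At 18 h, 2 of these 7 were called upregulated (Hes6 and Hey2), beside 1.33% of all genes tested, and none was called downregulated, beside 0.724%. At 24 h, 1 of 7 was called upregulated (Hes6), beside 2.07% of all genes tested, and none downregulated, beside 0.836%. With no minimum fold-change, 3 of 7 were upregulated after 18 h (Hes1, Hes6 and Hey2; 4.27% of all genes tested) and 2 of 7 after 24 h (Hes1 and Hes6; 6.52%). The median log2 fold-change of the 7 members was 0.38 after 18 h and 0.73 after 24 h, and without Hes6 it was 0.28 and 0.48. The median over all genes tested was -0.003 after 18 h and 0.004 after 24 h. The comparisons after 18 h and 24 h share the 0 h libraries.

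**Figure D1:**
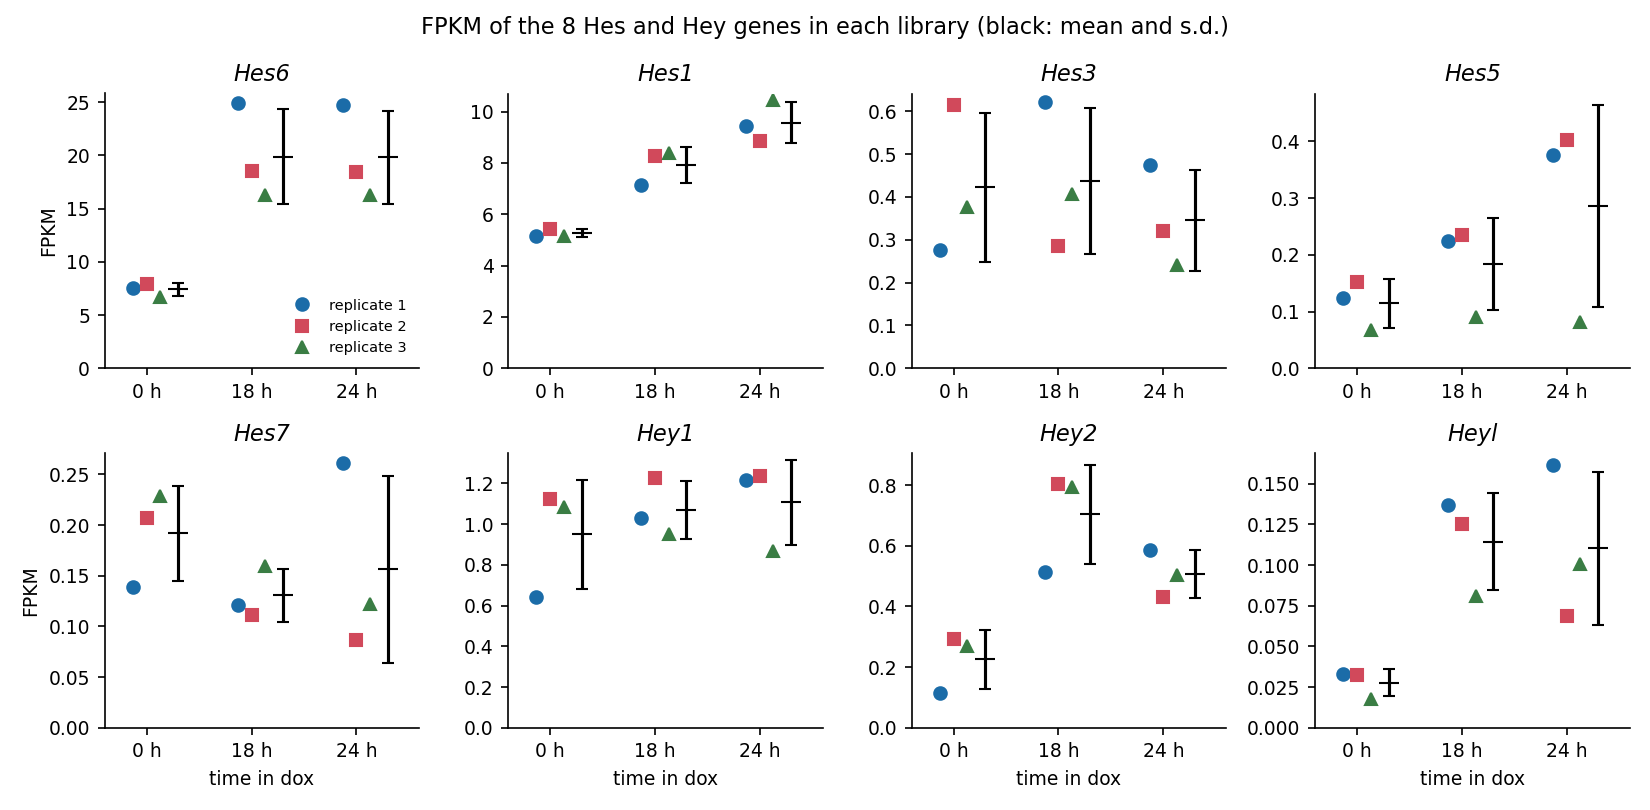
FPKM (vertical axis, linear, each panel on its own scale from 0) of each of the 8 genes in each of the 9 libraries, without dox and after 18 h and 24 h, with symbols for the replicate numbers and the mean±s.d. (n=3) in black. All dox-treated libraries lie above all 0 h libraries for Hes6, Hes1, Hey2 and Heyl, whereas the time points overlap for Hes3, Hes5, Hes7 and Hey1.

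Hes6 (ENSMUSG00000067071) spans chr1:91411483-91414038 (GRCm38, minus strand) and has 4 exons in its coding transcript. It was already the most abundant member without dox, and its expression was about 2.6-fold higher after dox. In replicates 1, 2 and 3, Hes6 was at 7.58, 7.95 and 6.74 FPKM without dox, at 24.9, 18.5 and 16.3 FPKM after 18 h and at 24.7, 18.5 and 16.3 FPKM after 24 h. The dox-treated libraries did not overlap with those without dox, and the level of each replicate was nearly the same after 18 h as after 24 h. The mean was 7.42±0.620 FPKM (s.d., n=3) without dox, 19.9±4.49 after 18 h and 19.8±4.37 after 24 h. The log2 fold-change was 1.39 after 18 h (s.e. 0.18, 95% interval 0.99 to 1.79, adjusted p = 0.00331). At 24 h it was 1.39 (95% interval 0.98 to 1.79, adjusted p = 0.00246). These values rest on 265 to 345 reads per library without dox and 711 to 1135 after dox.

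Hes1 (ENSMUSG00000022528, chromosome 16 from 30064384 to 30067796, plus strand, 4 exons) is a known Notch target. Its level is known to oscillate in individual ESCs and neural progenitors, and whether Notch drives it in these cells was not tested. Its fold-change was smaller in value than that of Hes6 at both times, and its highest values were those after 24 h. Its expression in replicates 1, 2 and 3 was 5.17, 5.44 and 5.17 FPKM without dox, 7.13, 8.27 and 8.38 after 18 h and 9.43, 8.85 and 10.4 after 24 h. No library of a later time point was as low as any library of an earlier one. The log2 fold-change was 0.58 after 18 h (s.e. 0.09, 95% interval 0.38 to 0.78, adjusted p = 0.00679) and 0.85 after 24 h (95% interval 0.65 to 1.05, adjusted p = 0.00104). Hes1 was thus upregulated at both times but below the 2-fold minimum, at 1.49-fold and 1.80-fold.

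**Figure D2:**
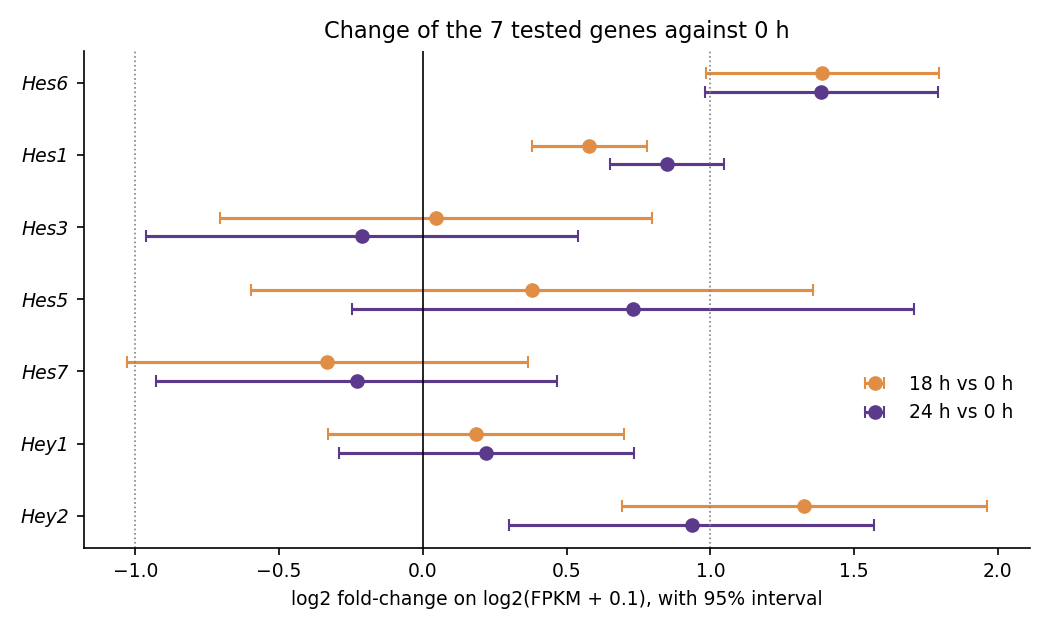
Log2 fold-change against 0 h (horizontal axis, limma on log2(FPKM+0.1)) of the 7 tested members after 18 h and 24 h, with 95% intervals as bars and the 2-fold minimum dotted. The intervals of Hes6, Hes1 and Hey2 exclude 0 at both times, those of the other 4 genes include it, and the adjusted p of Hey2 after 24 h was 0.0622.

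Hes6 and Hes1 together made up 84.7% to 93.3% of the summed FPKM of the 8 members in every library. The sum itself was 14.6±1.04 FPKM (s.d., n=3) without dox, 30.5±3.86 after 18 h and 31.9±4.63 after 24 h. The share of Hes6 in it ran from 48.3% to 53.9% without dox, from 59.9% to 71.8% after 18 h and from 56.9% to 66.4% after 24 h. The FPKM of Hes6 was 1.30 to 1.47 times that of Hes1 without dox, 1.94 to 3.50 times after 18 h and 1.56 to 2.62 times after 24 h. Replicate 1 had the highest and replicate 3 the lowest ratio at each time point. Because both genes are read in the same library, this ratio does not depend on the scaling between libraries. The ratio of Hes6 to the other 7 members together was on average 1.80-fold higher after 18 h than without dox and 1.57-fold higher after 24 h, with all 3 dox-treated libraries above all 3 without dox in both comparisons. An exact two-sided permutation test gave p = 0.1 for each, which is the smallest p that 3 libraries against 3 allow (0.15 after adjustment over the 3 comparisons). Against Hes1 alone the ratio was 1.76-fold and 1.45-fold higher, with the same p. The ratio to the other 7 members was 0.872 times as high after 24 h as after 18 h (exact permutation p = 0.6). Its log2 value was lower within each replicate number, from 1.35 to 0.983, from 0.743 to 0.698 and from 0.581 to 0.399. Within replicate numbers the exact permutation p was 0.25, the smallest that 3 pairs allow.

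**Figure D3:**
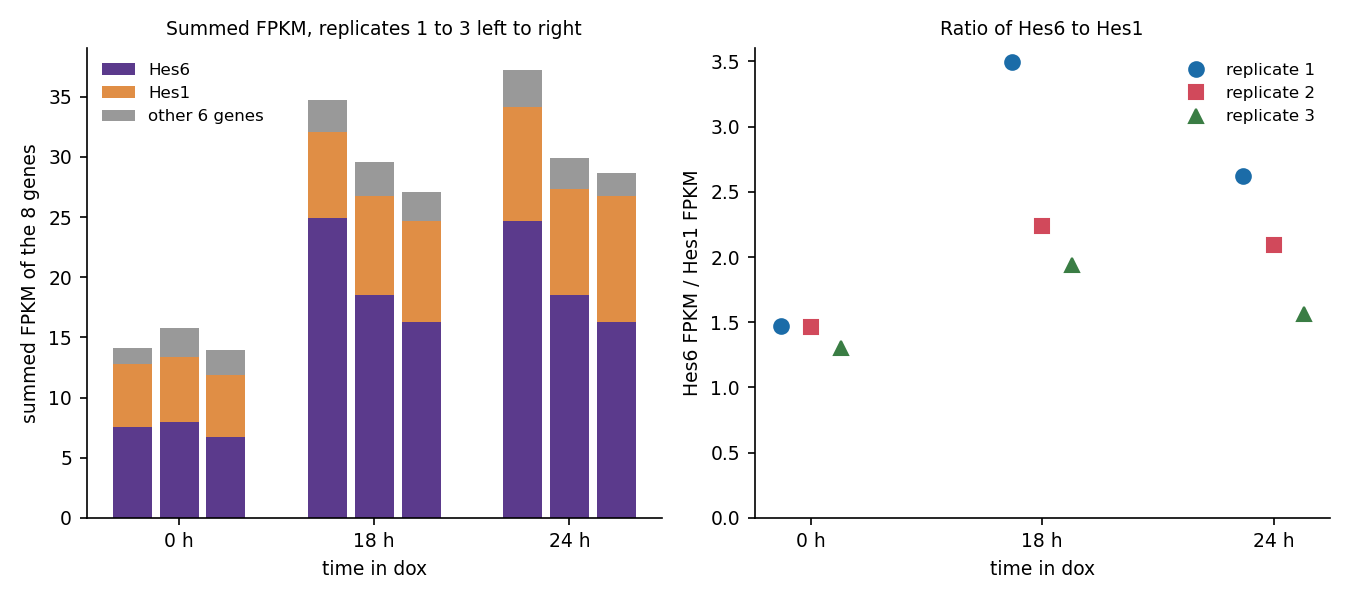
Left, summed FPKM of the 8 members in each library, split into Hes6, Hes1 and the other 6 genes, with replicates 1 to 3 from left to right at each time point. Right, the ratio of Hes6 FPKM to Hes1 FPKM in each library, between 1.30 and 1.47 without dox and above 1.5 in all 6 dox-treated libraries.

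The Hey genes encode relatives of the Hes proteins that are best known as Notch effectors in the heart and vasculature. Hey2 (ENSMUSG00000019789, chromosome 10 from 30832359 to 30842801, minus strand, 5 exons) was at 0.115, 0.294 and 0.271 FPKM without dox in replicates 1, 2 and 3. At 18 h it was at 0.514, 0.802 and 0.794 FPKM, and after 24 h at 0.586, 0.430 and 0.504. It was low throughout, and no dox-treated library was as low as any 0 h library. The log2 fold-change of Hey2 was 1.33 after 18 h (s.e. 0.28, 95% interval 0.69 to 1.96, adjusted p = 0.0239). This adjusted p came to 0.0590, 0.0940 and 0.0915 when replicate 1 without dox, replicate 2 after 18 h or replicate 3 after 18 h was left out. At 24 h the log2 fold-change was 0.94 (95% interval 0.30 to 1.57, adjusted p = 0.0622). With the replicate number as a block this p was 0.0363, beside 13.6% of all genes at or below 0.05 and upregulated in that fit. With the block and no filter on low values the adjusted p was 0.0741. The reads behind these values numbered 7, 18 and 15 without dox, 30, 51 and 49 after 18 h and 38, 28 and 35 after 24 h.

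Heyl (ENSMUSG00000032744, chromosome 4 from 123233556 to 123249875, plus strand, 5 exons) had a mean of 0.0842 FPKM over the 9 libraries, under the filter. Its reads in replicates 1, 2 and 3 numbered 4, 4 and 2 without dox, 16, 16 and 10 after 18 h and 21, 9 and 14 after 24 h. In FPKM this was 0.0328, 0.0326 and 0.0180 without dox, 0.137, 0.126 and 0.0808 after 18 h and 0.162, 0.0690 and 0.101 after 24 h, with no overlap between dox-treated and 0 h libraries. Summed over replicates and scaled to library size, Heyl had 4.06 times the reads after 18 h (95% interval 2.004 to 9.07, exact binomial) and 3.90 times after 24 h (95% interval 1.93 to 8.69), intervals that cover counting error only. The edgeR quasi-likelihood test on the recovered reads called it at both times, with a log2 fold-change of 1.99 after 18 h (adjusted p = 0.0238) and 1.93 after 24 h (adjusted p = 0.0223). It also called Hes6 and Hey2 at both times, beside 1.99% of 19210 genes called upregulated after 18 h and 2.81% after 24 h. On the log2(FPKM+0.1) scale with no filter, the log2 fold-change of Heyl was 0.74 after 18 h (adjusted p = 0.0963) and 0.70 after 24 h (adjusted p = 0.0936). That scale understates the change of a gene this low. Heyl had 10 reads in all without dox, 42 after 18 h and 44 after 24 h. Its place in the authors' filtered table may thus rest on the dox-treated libraries, so its edgeR calls support nothing about the members as a set.

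Hey1 (ENSMUSG00000040289, chromosome 3 from 8663359 to 8667256, minus strand, 5 exons) was the most abundant Hey gene and the third member in order of mean level. It was at 0.642, 1.12 and 1.08 FPKM without dox, at 1.03, 1.23 and 0.950 after 18 h and at 1.22, 1.24 and 0.866 after 24 h, and all time points overlapped. Its log2 fold-change was 0.18 after 18 h (95% interval -0.33 to 0.70) and 0.22 after 24 h (95% interval -0.29 to 0.73), and neither passed the test (adjusted p = 0.657 and 0.564). The ratio of Hey2 to Hey1 was 0.230±0.0446 (s.d., n=3) without dox, 0.663±0.169 after 18 h and 0.471±0.117 after 24 h.

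Counting Heyl, 4 of the 8 members had every dox-treated library above every 0 h library at both times, and 3 of these were among the 7 tested. Of all genes tested, 10.5% did so at both times, 14.4% after 18 h and 16.7% after 24 h.

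The other 3 Hes genes were low and did not pass the test. Hes5 (ENSMUSG00000048001, chromosome 4 from 154960923 to 154962371, plus strand, 3 exons) is the Notch target most closely tied to neural progenitors. Its expression was 0.123, 0.153 and 0.0675 FPKM without dox, 0.225, 0.235 and 0.0910 after 18 h and 0.375, 0.403 and 0.0808 after 24 h in replicates 1, 2 and 3. Replicates 1 and 2 after 24 h lay above all 0 h libraries, whereas replicate 3 was the lowest library at each time point. Hes5 had a log2 fold-change of 0.38 after 18 h (95% interval -0.60 to 1.36), and after 24 h it had 0.73 (95% interval -0.25 to 1.71, adjusted p = 0.305, 0.0939 with the replicate block). The reads numbered 4, 5 and 2 without dox and 13, 14 and 3 after 24 h, a ratio of 2.42 after scaling (95% interval 1.18 to 5.35, exact binomial, counting error only). An exonic overlap of 433 bases with Gm20421 on the opposite strand makes the value of Hes5 uncertain, because how strand was handled in the counting is not given in the sources used here.

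Hes3 (ENSMUSG00000028946, chromosome 4 from 152285972 to 152291662, minus strand, 5 exons) helps to keep neural progenitors undifferentiated together with Hes1 and Hes5. It lay between 0.241 and 0.622 FPKM in all 9 libraries, with 54 reads in all without dox, 57 after 18 h and 49 after 24 h. Its log2 fold-change was 0.05 after 18 h (95% interval -0.70 to 0.80) and -0.21 after 24 h (95% interval -0.96 to 0.54). Hes7 (ENSMUSG00000023781, chromosome 11 from 69120404 to 69124055, plus strand, 4 exons), the oscillator of the segmentation clock in presomitic mesoderm, lay between 0.0867 and 0.261 FPKM. Its log2 fold-change was -0.33 after 18 h (95% interval -1.03 to 0.37) and -0.23 after 24 h (95% interval -0.93 to 0.47). It overlaps 9130213A22Rik on the opposite strand by 234 exonic bases. The intervals of Hes3 and Hes7 do not exclude falls of about 2-fold, so these genes are not shown to be unchanged.

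Ordered by mean FPKM without dox, the members ran Hes6 (7.42), Hes1 (5.26), Hey1 (0.950), Hes3 (0.422), Hey2 (0.227), Hes7 (0.192), Hes5 (0.114) and Heyl (0.0278). Hes6 was above Hes1 in all 9 libraries. Without dox, Hes3 overlapped with Hey2, Hey2 with Hes7 and Hes7 with Hes5, whereas Hey1 lay above all of these and Heyl below. At 24 h the order was Hes6 (19.8), Hes1 (9.57), Hey1 (1.11), Hey2 (0.507), Hes3 (0.345), Hes5 (0.286), Hes7 (0.157) and Heyl (0.110), where Hey1 again lay apart and each gene from Hey2 to Heyl overlapped with its neighbour.

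Between 18 h and 24 h, limma called none of the 7 tested members, beside 0.0223% of all genes tested, and edgeR called none of the 8. DESeq2 gave an adjusted p to Hes1, Hes6 and Hey1 alone and called none of these 3. Hes1 was the only member with an unadjusted p under 0.05 in limma, edgeR or DESeq2, with a log2 fold-change of 0.27 (95% interval 0.07 to 0.47, adjusted p = 0.857). All 24 h libraries of Hes1 lay above all 18 h libraries, as for 6.81% of all genes tested. For Hes6 the log2 fold-change was -0.004 (95% interval -0.41 to 0.40), and for Hey2 it was -0.39 (95% interval -1.03 to 0.24).

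The genes that act before the Hes and Hey genes in the Notch pathway, with other Notch targets, made up 41 genes, all of which were tested. Called upregulated were 3 of them after 18 h, beside 1.33% of all genes tested, and 5 after 24 h, beside 2.07%. None was called downregulated, beside 0.724% and 0.836%. Without the 2-fold minimum, the uncalled genes that were downregulated were Jag2, Snw1, Ccnd1 and Myc at both times and Dtx1 after 18 h. Those upregulated were Notch2 and Numbl at both times and Notch1 and Adam10 after 24 h. The median log2 fold-change of the 41 genes was 0.08 after 18 h and 0.13 after 24 h, beside -0.003 and 0.004 over all genes tested, with which the medians of the lists below can also be compared. Dll4 and Sox9, among those called after 24 h, had a mean under 0.1 FPKM without dox and passed the filter only through the dox-treated libraries, so that their calls support nothing about the list. Of the 5 ligands, Dll1 and Dll3 were called at both times. Dll1, a Delta ligand, rose from 1.10±0.212 FPKM (s.d., n=3) without dox to 3.35±0.143 after 18 h and 3.85±0.661 after 24 h, and its log2 fold-change after 24 h was 1.73 (adjusted p = 0.000593). Dll3, a Delta family member that acts within the cell that makes it and blocks Notch there, rose from 2.52±0.625 FPKM to 8.51±1.05 and 9.99±1.63, with a log2 fold-change of 1.96 after 24 h (adjusted p = 0.000480). Dll4, a Delta ligand of endothelium, was at 0.0741±0.0135 FPKM without dox, 0.231±0.0257 after 18 h and 0.322±0.129 after 24 h. It was called after 24 h (log2 fold-change 1.23, adjusted p = 0.0248) and not after 18 h (0.93, adjusted p = 0.0753, or 0.0409 with the replicate number as a block). Neither Jagged ligand was upregulated. Jag2 fell from 16.0±1.24 FPKM to 12.7±0.242 after 24 h (log2 fold-change -0.33, adjusted p = 0.0165), and Jag1 had a log2 fold-change of -0.02 after 24 h (adjusted p = 0.950).

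Of the 4 receptors none was called, and their median log2 fold-change was 0.29 after 18 h and 0.36 after 24 h. Notch2 rose from 5.52±0.570 FPKM to 9.28±0.826 after 24 h (log2 fold-change 0.74, adjusted p = 0.00338), and Notch3, the most abundant receptor, had a log2 fold-change of 0.26 (adjusted p = 0.140, 0.0430 with the replicate block). Notch1 had a log2 fold-change of 0.47 after 24 h (adjusted p = 0.0304). Notch4 was at 0.611±0.0939 FPKM without dox, 0.346±0.0478 after 18 h and 0.396±0.0616 after 24 h, with log2 fold-changes of -0.67 (adjusted p = 0.0729, 0.0400 with the replicate block) and -0.52 (adjusted p = 0.128), and its dox-treated libraries all lay below those without dox. Among 20 processing enzymes and modulators, Lfng, a Fringe glycosyltransferase that alters which ligands a receptor answers to, was called at both times. Lfng was at 6.66, 8.38 and 6.44 FPKM without dox, at 20.3, 20.6 and 18.6 after 18 h and at 18.6, 19.8 and 19.1 after 24 h. Its log2 fold-change was 1.46 after 18 h and 1.42 after 24 h (adjusted p = 0.000134 and 0.000110). Ncstn, which encodes the γ-secretase subunit nicastrin, had a log2 fold-change of 0.08 after 24 h and did not pass the test. The median of the 20 genes was 0.09 after 18 h and 0.13 after 24 h.

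None of the 6 genes of the nuclear complex was called (median log2 fold-change -0.11 and -0.06), and after 24 h Snw1 had a log2 fold-change of -0.25 (adjusted p = 0.0394) and Maml1 one of 0.03. Of the 6 other Notch targets (median -0.03 and -0.09), Sox9 was called upregulated after 24 h, from 0.0398±0.0429 FPKM without dox to 0.248±0.117 (log2 fold-change 1.30, adjusted p = 0.0464). Ccnd1, which encodes cyclin D1, fell from 28.1±4.55 FPKM to 16.5±1.79 (log2 fold-change -0.76, adjusted p = 0.0104). Cdkn1a, a cyclin-dependent kinase inhibitor, had a log2 fold-change of 0.40 (adjusted p = 0.160, 0.00314 with the replicate block).

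**Figure D4:**
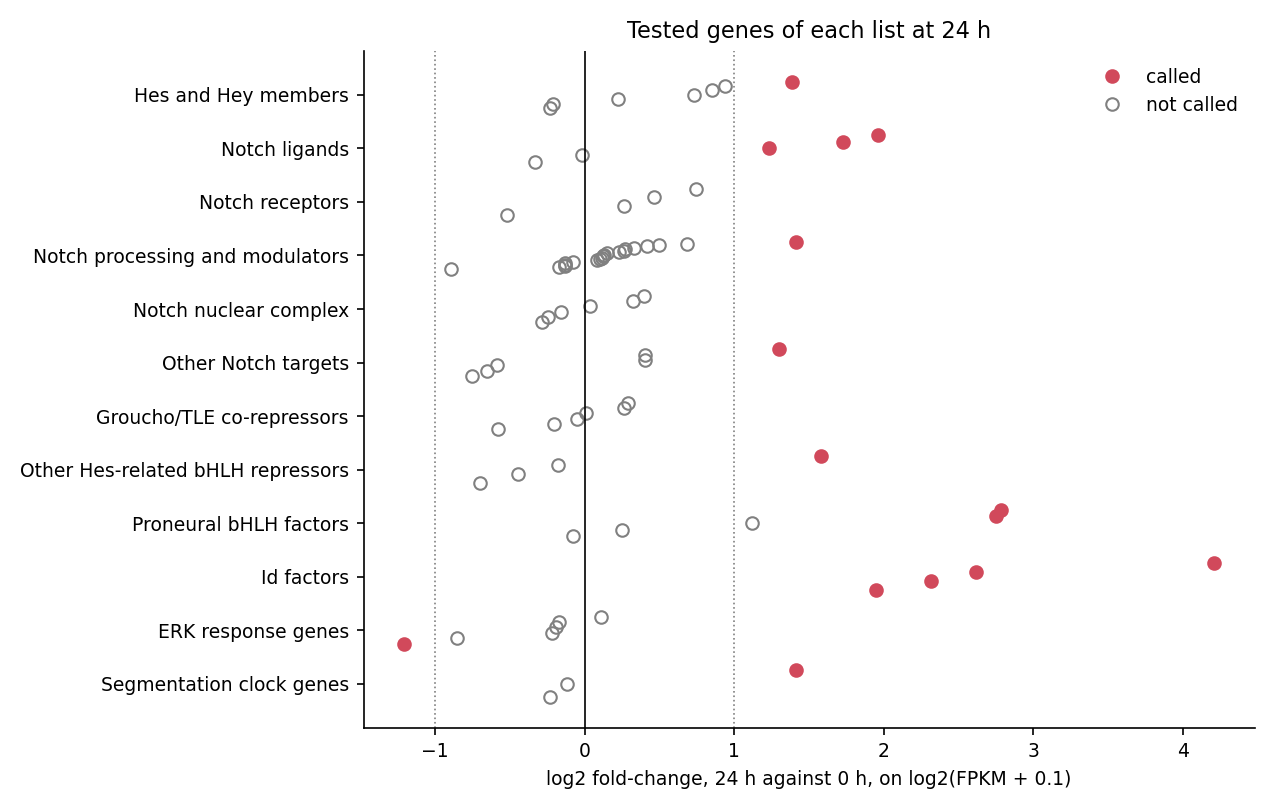
Log2 fold-change after 24 h against 0 h (horizontal axis, limma on log2(FPKM+0.1)) of each tested gene of the members and of 11 lists of related genes, filled where called and open where not, with the 2-fold minimum dotted. The 4 Id genes lie between 1.95 and 4.21, and no Groucho/TLE co-repressor is called.

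The co-repressors that Hes proteins recruit gave no call. None of the 6 Groucho/TLE genes was called, with a median log2 fold-change of -0.01 after 18 h and -0.02 after 24 h. Tle4, the most abundant, was at 41.3±4.43 FPKM (s.d., n=3) without dox and 35.7±1.36 after 24 h and did not pass the test (adjusted p = 0.111). Aes, the short family member also named Tle5, which lacks the repeats of the longer ones and is known to oppose them, fell from 34.6±2.78 FPKM to 23.3±3.50 (log2 fold-change -0.58, adjusted p = 0.0183).

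Among 4 other repressors of the Hes-related class, Helt was called upregulated at both times, and it was at 0.0274, 0 and 0.120 FPKM without dox, 0.457, 0.341 and 0.432 after 18 h and 0.309, 0.282 and 0.384 after 24 h. It passed the filter only through the dox-treated libraries. Its log2 fold-change was 1.85 after 18 h (adjusted p = 0.0105) and 1.58 after 24 h (adjusted p = 0.0154). Bhlhe40, a repressor of the circadian and hypoxia responses, fell from 8.58±0.686 FPKM to 6.27±0.488 after 24 h (log2 fold-change -0.45, adjusted p = 0.0293), and Bhlhe41 had a log2 fold-change of -0.18. The median of the 4 was -0.33 after 18 h and -0.31 after 24 h.

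Proneural factors, which Hes proteins repress and with which Hes6 is known to act, were low. Of the 8 listed, 5 passed the filter, and of these Neurod4, Neurog1 and Atoh1 passed it only through the dox-treated libraries. Neurog3 was called at both times and was at 0.163, 0.433 and 0.269 FPKM without dox, 1.87, 1.35 and 1.48 after 18 h and 2.99, 2.01 and 2.48 after 24 h. Its value is uncertain in that it overlaps Fam241b on the opposite strand. Neurod4 was called after 24 h, where it was at 1.81, 0.820 and 0.417 FPKM against 0, 0.0623 and 0.0825 without dox (log2 fold-change 2.75, adjusted p = 0.00830). Neurod1, the most abundant, had a log2 fold-change of -0.08 after 24 h, and Neurog1 had 1.12 (adjusted p = 0.130).

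All 4 Id genes, whose products bind E proteins without contacting DNA and so block them, were called upregulated at both times, with a median of 2.35 and 2.47. The largest change among these 4 was that of Id3, from 14.1±4.06 FPKM without dox to 246±17.4 after 18 h and 257±23.4 after 24 h (log2 fold-change 4.15 and 4.21). Id1 rose from 35.8±12.0 FPKM to 212±8.73 and 213±18.8, and the log2 fold-changes after 24 h were 2.62 for Id1, 1.95 for Id2 and 2.32 for Id4. Among 6 genes that report ERK signalling, Egr1 fell from 11.1±2.87 FPKM to 4.69±0.506 and was called downregulated after 24 h (log2 fold-change -1.21, adjusted p = 0.00513). Etv5 and Dusp6 had log2 fold-changes of -0.17 and 0.11 there, with an adjusted p for Etv5 of 0.504, or 0.0189 with the replicate block. The median of the 6 was -0.11 after 18 h and -0.20 after 24 h. Of 5 genes of the segmentation clock, 3 passed the filter. Lfng, counted above, was the only one called, and Mesp2 and Tbx6 had log2 fold-changes of -0.23 and -0.12 after 24 h.

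For the 3 members with a mean of at least 1 FPKM, the genes with the most similar pattern were ranked by Pearson's r of log2(FPKM+0.1) over the 9 libraries, among 11893 genes. Those of Hes6 were Parp12 (r = 0.989), Tmem2 (0.988), Gadd45g (0.985), Adam19 (0.984) and Kcnh8 (0.983). Gadd45g, a stress and growth-arrest gene, was at 3.89 FPKM without dox, 11.5 after 18 h and 12.5 after 24 h on average. Those of Hes1 were Lrrc8c (0.983), Efnb1 (0.979), Plekhg1 (0.979), Pth1r (0.978) and Rgs16 (0.976). Efnb1, which encodes ephrin-B1, was at 1.77 FPKM without dox, 3.47 after 18 h and 4.68 after 24 h, and Rgs16, a regulator of G protein signalling, was at 3.63, 9.89 and 13.6. The nearest genes of Hey1 were Wt1 (0.909), Cul2 (0.903), Sec23a (0.899), Gm22753 (0.896) and Egln1 (0.892). Among the members, Hes6 correlated with Heyl at r = 0.951, with Hes1 at 0.833, with Hey2 at 0.777, with Hes5 at 0.630, with Hey1 at 0.415, with Hes3 at 0.111 and with Hes7 at -0.323. These values are descriptions over 9 libraries that share their time points, replicate numbers and depth.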

How the data were processed

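RNA-seq was available for 9 libraries of dox-inducible ESCs, 3 at each of 0 h, 18 h and 24 h. Per the labels and the paper, the authors made TruSeq stranded libraries of polyadenylated RNA, trimmed reads with cutadapt 1.9, aligned them to GRCm38 with STAR and used edgeR 3.16.5. The counting tool and its strand setting are not given in the sources used here. The authors deposited FPKM, which are scaled for gene length and reads mapped, for 47729 genes, of which 19906 are at 0 throughout. They also deposited a per-library signal (CPM adjusted by effective library size), covering 19210 genes, beside log2 fold-change, p-value and false discovery rate columns of their own comparisons, which were not used. Each signal was a whole multiple of what 1 read is worth (100% of values, tolerance 0.01), so reads per gene were recovered. No per-sample column was left unmatched.

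The main test, and the source of every adjusted p with no other tool named, was limma 3.58.1 (trend) in R 4.3.3 on log2(FPKM+0.1), with all 9 libraries, no replicate block and a mean FPKM of at least 0.1. Count models (edgeR 4.0.16 quasi-likelihood, DESeq2 1.42.0) were run on the recovered reads. All were tested on simulated data. Replicates differed beyond sampling noise (chi-square per degree of freedom 5.39 to 16.3). Deviations of same-numbered libraries from their time-point means correlated in all 9 pairs (r 0.211 to 0.548, over 11893 genes). The numbers were therefore taken to pair the samples. Other pairs had r of -0.399 to 0.110. Taking deviations from the means makes these lower once same-numbered pairs are positive, so they add no separate support. The paper speaks of biological experiments, but the labels do not say whether replicates came from separate cultures. If they did not, p values measure only the spread between these samples, which may be technical.

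The members and lists were chosen with earlier results of these data known. Named genes are the members, every listed gene called against 0 h, the 2 most abundant uncalled genes of each list, Tcf3 and the 5 genes most like each member with a mean of at least 1 FPKM. A gene that this rule names is not reported here. The cell type markers named singly, Notch1, Notch4, Numbl, Adam10, Dtx1, Myc, Atoh1 and Fam241b fall outside the rule and were chosen after their values were seen. Gene positions are from GENCODE (release M21), promoters from RefSeq (GRCm38.p6). Alternatives were pseudocounts of 1 and 0.01, no filter, a mean FPKM of at least 1, median centring, quantile normalization, only the time points compared, the replicate block, no minimum fold-change, both count models and each library left out. Python 3.11.15, pandas 2.3.3, scipy 1.17.1 and matplotlib 3.10.9 were used.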

Additional observations from a re-analysis of the deposited data

How the results depend on the processing

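Hes6 and Hes1 were upregulated against 0 h at both times under all 21 alternatives each, with log2 fold-changes of 1.22 to 1.52 for Hes6 and 0.51 to 0.90 for Hes1. The call of Hey2 at 18 h was lost with only the time points compared (adjusted p = 0.0718 at a log2 fold-change of 1.33) and with a pseudocount of 1 (log2 fold-change 0.47), which left 1 member called, as did a mean FPKM of at least 1, which removes Hey2. Leaving out libraries gave Hey2 log2 fold-changes of 1.05 to 1.51 and 1 to 2 members called. At 24 h, Hey2 passed an adjusted p of 0.05 with the replicate block (0.94), edgeR (1.15), edgeR with the block (1.17) and DESeq2 (1.15). These 3 count fits called 3 members, and no minimum fold-change gave 2 at 24 h. With limma, the block and no filter, a fit chosen after seeing the data, Hey2 at 24 h did not pass (adjusted p = 0.0741). Heyl fell short with limma and no filter (0.74 at 18 h and 0.70 at 24 h), also with the block (0.74 and 0.70), a fit chosen after seeing the data. With limma, the block changed no member's call, since Hey2 at 24 h stayed under the 2-fold minimum (506 and 630 genes called, 4 at 24 h against 18 h).

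The 369 genes called at 18 h became 120 with a pseudocount of 1, 210 at a mean FPKM of at least 1, 583 with edgeR, 816 with edgeR and the block, 1433 with no minimum fold-change and 224 to 428 without a library (232 without replicate 2 and 224 without replicate 3 at 18 h). The 521 at 24 h became 151, 265, 780, 1018 and 2088 under the same settings and 333 to 544 without a library (333 without replicate 3 at 24 h). The 4 at 24 h against 18 h became 0 with a pseudocount of 1, a mean FPKM of at least 1 or edgeR, 1 with a pseudocount of 0.01, 9 with edgeR and the block, 2 with DESeq2 and 0 to 8 without a library. Median centring moved the upregulated share of calls at 24 h from 71.2% to 59.1%.

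Directions turned only for changes near 0. Without a library, Hes3 ran from -0.19 to 0.30 at 18 h and -0.42 to 0.0405 at 24 h, and Hey1 from -0.0480 to 0.31 and -0.0120 to 0.37. At 24 h against 18 h, Hes6 ran from -0.17 to 0.17, Hes7 from -0.17 to 0.30, Hey1 from -0.0454 to 0.19 and the log2 ratio of Hes6 to the other members from -0.35 to 0.0312. Hes6 was at 0.00721 with quantile normalization, and Hey1 at -0.00409 with median centring and -0.0152 with quantile normalization. For these lost calls and turns the cause was not tested. Within replicate numbers (block), the Hes6 ratio had an exact permutation p of 0.25, the smallest that 3 pairs allow.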

Other observations

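Replicate 1 had the highest Hes6 level of its time point after dox (24.9 FPKM at 18 h and 24.7 at 24 h), and replicate 3 had the lowest (16.3 at both times). The same held for Dll3 at both times, with 9.53 and 11.6 FPKM in replicate 1 against 7.43 and 8.39 in replicate 3. It also held for Neurod4, with 1.81 FPKM in replicate 1 and 0.417 in replicate 3 at 24 h. It did not hold for Id3, with 264.6 FPKM in replicate 3 at 18 h and 284 at 24 h, the highest of each time point. Tcf3 in replicates 1 and 3 was at 116 and 106.6 FPKM at 18 h and at 104 and 108 at 24 h. Replicate 3 was also the lowest library of Hes5 at each time point. Replicate 1 stood apart in cell type markers. At each time point it was the highest library of Dppa5a (1069, 905 and 905 FPKM), Zfp42 and Esrrb. It was the lowest of Sox1 (0.208, 0.715 and 1.47 FPKM), Nes, Acta2 and Col1a2, so Sox1 did not follow the order of Hes6. These patterns were picked after the values were seen and were not tested.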
